A study of Caenorhabditis elegans with 2 samples.

Results

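The genes of the small ribosomal subunit proteins, whose symbols start with rps- in Caenorhabditis elegans, were followed through the peak lists of a chromatin immunoprecipitation of JUN-1. They were all 31 protein-coding genes of that prefix in the WBcel235 annotation, of 19973 protein-coding genes on the nuclear chromosomes. For each gene, the strongest peak summit between 1000 bp upstream and 200 bp downstream of a transcript start was taken, here called its promoter summit. The chromatin came from whole L4 larvae, the last larval stage, of strain OP234, which carries unc-119(ed3) III and the insertion wgIs234 with jun-1 fused to eGFP. JUN-1 is a nematode relative of JUN, a subunit of the AP-1 transcription factor. The sexes were pooled, and the replicates were 2 biological replicates of this 1 strain and stage. No other strain, stage or treatment stood beside them, so no comparison between groups was possible. The labels do not give the promoter that drives the transgene or its copy number. Since the animals were whole, the tissue in which a site was occupied cannot be told.

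Each ribosome has a small and a large subunit. The small subunit, built from 1 ribosomal RNA and one copy of each of its proteins, scans the messenger RNA, pairs codons with transfer RNAs in its decoding centre and is the landing place of the initiation factors. Its head carries much of the transfer RNA path and the beak, and its body and platform carry the channels by which messenger RNA enters and leaves. Because these proteins are needed in near-equal amounts and in bulk by growing animals, their genes are strongly transcribed and are often studied as a co-regulated set.

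Of the 31 rps genes, 12 had a reproducible promoter summit, which is 38.7% (95% exact binomial interval 21.9 to 57.8). Reproducible here means in the list of 899 peaks that passed the authors' threshold on the irreproducible discovery rate, and 3.35% of all protein-coding genes had a promoter summit in that list. The 12 were rps-1, rps-12, rps-19, rps-15, rps-28, rps-20, rps-18, rps-23, rps-4, rps-14, rps-24 and rps-30, from the strongest to the weakest. No peak was shared between rps genes, so the count was not raised by neighbouring rps genes under 1 peak. However, 10 of the 12 peaks also fell in the promoter window of another protein-coding gene. In the joint list of 13085 regions, called from both replicates together before that threshold, 26 of the 31 had a promoter summit (83.9%, interval 66.3 to 94.6), against 24.7% of all protein-coding genes. The genes of the large subunit proteins, with the prefixes rpl- and rla-, had close to the same shares, with 17 of 50 in the reproducible list (34%, interval 21.2 to 48.8) and 43 of 50 in the joint list (86.0%). The peaks of rps-14, rps-30 and rps-10 are shared with large subunit genes and count in both sets. The intervals cover counting error over genes only. Whether these promoters are recovered with many other proteins was not tested.

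The reference sequence under the summits is shown for 6 of the 12, namely rps-1 and rps-12 as the strongest rps sites of chromosome III, rps-28 as the strongest of IV, and rps-14, rps-24 and rps-30 as further sites on III, IV and V that hold the word most often shared by the set. Each line has the 101 bases centred on the joint-list summit, 5′ to 3′ on the strand of the rps gene, from the RefSeq WBcel235 genome. Capitals mark TACGCA or its reverse complement TGCGTA, and also GAGAGA or its reverse complement TCTCTC.
rps-1, chrIII:4475607-4475707, plus strand: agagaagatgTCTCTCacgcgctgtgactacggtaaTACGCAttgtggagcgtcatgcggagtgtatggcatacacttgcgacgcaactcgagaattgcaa
rps-12, chrIII:5679072-5679172, plus strand: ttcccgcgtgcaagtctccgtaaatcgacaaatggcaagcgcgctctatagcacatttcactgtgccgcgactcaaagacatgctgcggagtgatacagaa
rps-28, chrIV:1659206-1659306, plus strand: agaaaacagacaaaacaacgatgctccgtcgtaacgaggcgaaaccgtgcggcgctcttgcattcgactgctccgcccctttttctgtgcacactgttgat
rps-14, chrIII:7179796-7179896, minus strand: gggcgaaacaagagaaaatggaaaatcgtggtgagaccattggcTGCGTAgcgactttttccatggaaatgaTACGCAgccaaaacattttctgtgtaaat
rps-24, chrIV:385316-385416, plus strand: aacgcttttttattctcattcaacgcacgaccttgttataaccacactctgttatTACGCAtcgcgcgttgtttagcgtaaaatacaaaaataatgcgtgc
rps-30, chrV:7776256-7776356, plus strand: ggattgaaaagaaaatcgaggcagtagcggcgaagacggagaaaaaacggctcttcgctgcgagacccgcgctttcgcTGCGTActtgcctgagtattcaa
The word TACGCA occurs near the middle of the rps-1 and rps-24 windows, and on both strands in the rps-14 window. Neither rps-12 nor rps-28 holds either word. Of the rps-24 window, 24 of the 72 overlapping 30-base words also occur elsewhere in the genome, and of the other 11 reproducible windows none do.

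The signals quoted next are the peak caller's values as the authors deposited them. Their scale is unknown, so they are to be read within 1 list. The strongest rps site was that of rps-1, which encodes eS1, a platform protein beside the messenger RNA exit. It had a signal of 218 in the joint list, 114 in replicate 1 and 104 in replicate 2, and ranked 32, 29 and 38 in those lists. The rps-12 site, at the gene of eS12 in the beak of the head, had 184 in the joint list, 99.2 in replicate 1 and 83.0 in replicate 2. In the joint list these 2 sites were narrow regions, at III from 4475594 to 4475749 and III from 5679067 to 5679195, where the median joint region was 376 bp wide. In the replicate 2 list, with a median region of 364 bp, the rps-12 region was not narrow and ran from 5678940 to 5679303. The rps-19 site had 171 in the joint list, 103.5 in replicate 1 and 71.4 in replicate 2, and its gene encodes eS19, a head protein whose human gene is mutated in Diamond-Blackfan anaemia. These 3 genes stood apart from the other rps genes, since the next had a joint signal of 95.4. All 3 were among the 50 strongest joint peaks, which reached 3 of 31 rps genes (9.68%), 4 of 50 rpl and rla genes (8.0%) and 0.190% of all protein-coding genes.

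**Figure D1:**
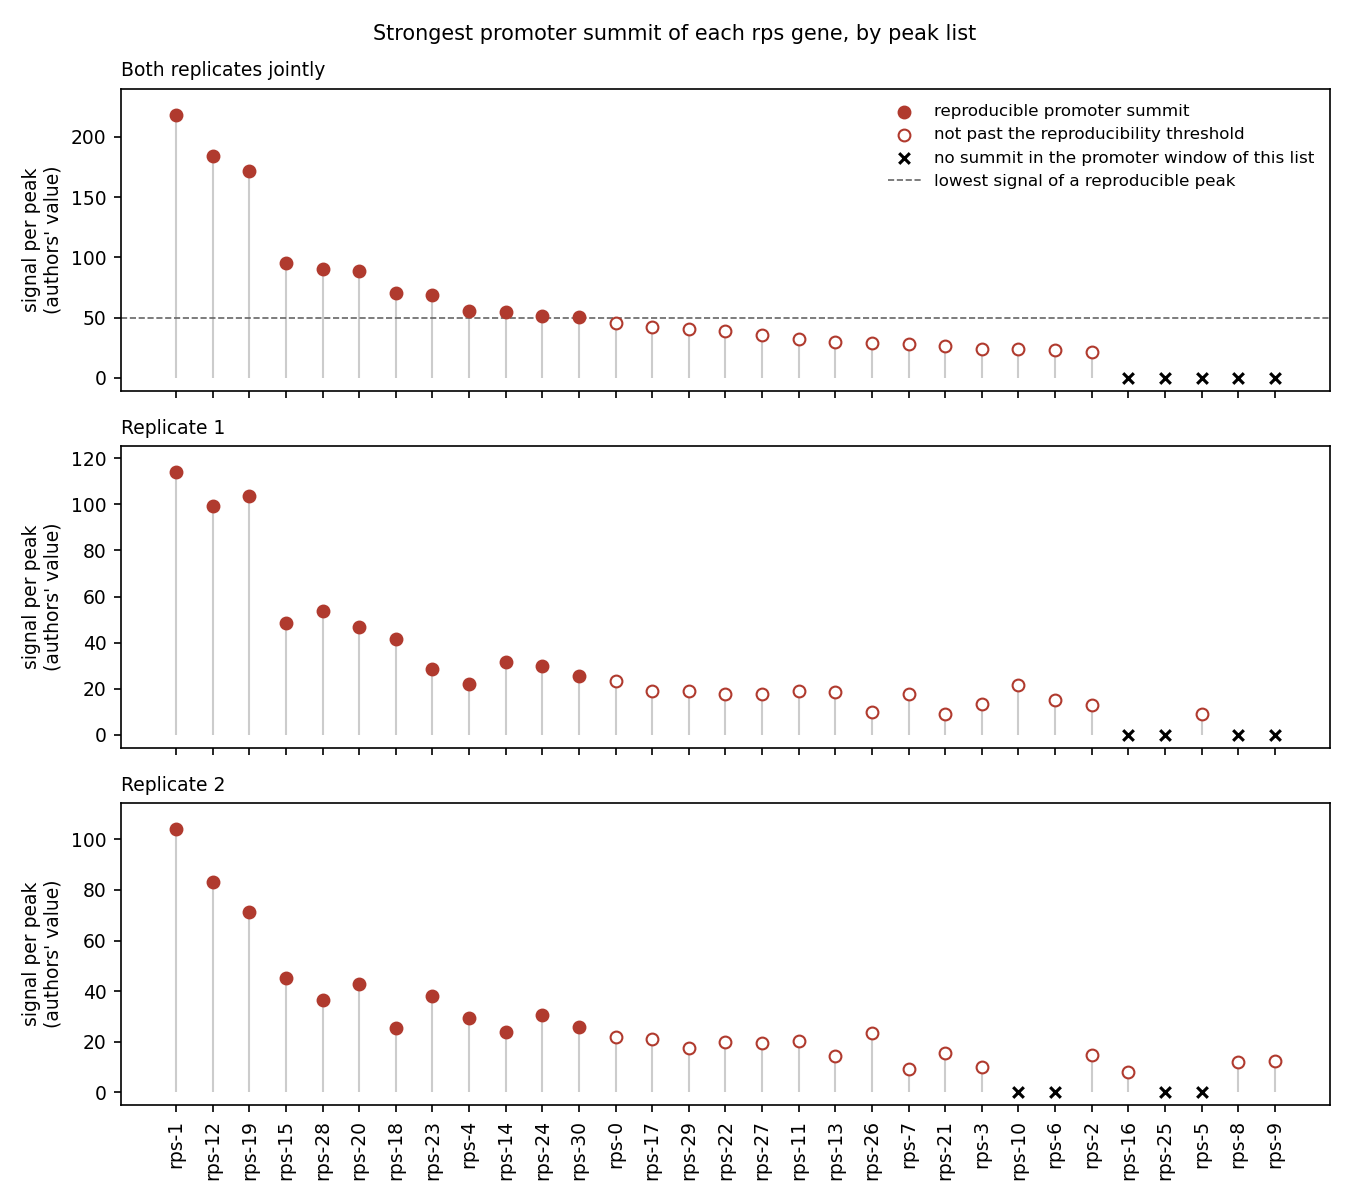
Strongest promoter summit of each of the 31 rps genes in the joint list (top), the replicate 1 list (middle) and the replicate 2 list (bottom), with the authors' signal per peak on linear axes that differ between lists. Filled points are the 12 genes with a reproducible summit, open points are summits that did not pass, crosses are genes with no summit in that list, and the dashed line is the lowest signal of a reproducible peak, 49.6. The first 3 genes lie above the rest in every list.

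A second tier of 5 genes had joint signals between 68.7 and 95.4. For rps-15, the gene of the head protein uS19, the signal was 95.4 in the joint list, 48.5 in replicate 1 and 45.3 in replicate 2. For rps-28, whose product eS28 sits near the messenger RNA exit, it was 90.5 in the joint list, 53.8 in replicate 1 and 36.5 in replicate 2. For rps-20, the gene of uS10, it was 88.3, 47.0 and 42.8 in the same lists. Ranks of these 3 genes lay between 142 and 446 in either replicate, so both libraries placed them well above the middle of their lists of 19396 and 23742 regions. The rps-18 site had 70.4 in the joint list, 41.5 in replicate 1 and 25.4 in replicate 2. The rps-23 site had 68.7 in the joint list, 28.7 in replicate 1 and 37.9 in replicate 2. The replicates ordered this pair oppositely, with rps-18 at rank 296 in replicate 1 and 1053 in replicate 2, and rps-23 at rank 747 in replicate 1 and 392 in replicate 2. The uS13 protein from rps-18 forms a bridge to the large subunit, and the uS12 protein from rps-23 lines the decoding centre.

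The last 4 reproducible genes lay close to the threshold. Signals of rps-4, the gene of the body protein eS4, were 55.6 in the joint list, 21.98 in replicate 1 and 29.2 in replicate 2. Those of rps-14, the gene of the platform protein uS11, were 55.0 in the joint list, 31.8 in replicate 1 and 23.9 in replicate 2. Signals of rps-24, the gene of the body protein eS24, were 51.3 in the joint list, 29.9 in replicate 1 and 30.3 in replicate 2. The replicate 2 value belongs to a summit 210 bp from the joint one, so it need not be of the same site. The site of rps-30, which encodes eS30 made in humans as a fusion with a ubiquitin-like protein, had 50.7 in the joint list, 25.5 in replicate 1 and 25.6 in replicate 2. Just outside the threshold stood rps-0 with a joint signal of 45.6, so that the step between a called and an uncalled gene was small there. The authors' threshold kept the joint list's 899 strongest peaks by signal, and a called gene is therefore 1 whose joint signal is at least 49.6.

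Below the threshold, 14 rps genes had a joint-list promoter summit, with signals from 21.4 to 45.6 and ranks from 1110 to 6931. The strongest 5 were rps-0, rps-17, rps-29, rps-22 and rps-27. The gene of uS2, rps-0, had 45.6 in the joint list, 23.5 in replicate 1 and 21.7 in replicate 2. The gene of the head protein eS17, rps-17, had 42.1 in the joint list, 19.3 in replicate 1 and 21.1 in replicate 2. In both replicates each of these 5 had a summit with a rank between 1190 and 2753, weaker than most of the reproducible genes there. The replicate lists include background regions, so a listed summit need not be a bound site. Among these 5 the -log10 q went down to 0.965 in replicate 1, at rps-22, and to 1.19 in replicate 2, at rps-29. The gene of the zinc-binding head protein uS14, rps-29, had 40.6, 19.02 and 17.2 in the joint, replicate 1 and replicate 2 lists. The gene of uS8, rps-22, had 38.7, 17.6 and 19.6 in the same order. The gene of eS27, rps-27, had 35.8, 17.7 and 19.6. Together with rps-4, rps-30 and rps-14, they formed a continuous slope of joint signals across the threshold, with no gap there like the one below rps-19.

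The other 9 joint-list genes were weaker, and several were seen unevenly by the replicates. Joint signals were 31.9 for rps-11, 30.1 for rps-13, 28.98 for rps-26, 28.3 for rps-7, 26.7 for rps-21, 23.99 for rps-3, 23.8 for rps-10, 23.1 for rps-6 and 21.4 for rps-2. Among them are the genes of uS3 and eS10 at the messenger RNA entry, rps-3 and rps-10, and the gene of eS6, the substrate of the S6 kinase, rps-6. Neither rps-6 nor rps-10 had a promoter summit in replicate 2, although replicate 1 had them at signals of 15.3 and 21.8. The joint summit of rps-26 lay 920 bp upstream in the coding sequence of tmem-107 and within 250 bp of a small nucleolar RNA gene, and replicate 1 put its strongest summit 539 bp from that of replicate 2. The joint summit of rps-2 lay 96 bp downstream of the start, inside its own coding sequence, and it was the only one of the 26 downstream of the start.

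No joint-list promoter summit was found for 5 rps genes, rps-5, rps-8, rps-9, rps-16 and rps-25. Their products are uS7, eS8, uS4, uS9 and eS25, of which uS9 touches the transfer RNA in the peptidyl site. A summit appeared in replicate 1 alone for rps-5 (signal 9.29) and in replicate 2 alone for rps-8 (11.7), rps-9 (12.4) and rps-16 (8.09). For rps-25 no list had one, and the nearest joint summit was 964 bp from its start with a signal of 22.4. The nearest joint summit to rps-16 was 1767 bp away with a signal of 92.4, at the promoter of fib-1, the gene of the methyltransferase fibrillarin that modifies ribosomal RNA. The rps-16 gene begins 110 bp downstream of the end of fib-1 on the same strand. A missing summit means that none was listed by the peak caller, and the read depth behind each list is unknown.

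Each replicate alone listed a promoter summit for 27 of the 31 rps genes (87.1%), against 31.3% of all protein-coding genes in replicate 1 and 35.6% in replicate 2. For 24 rps genes both replicates had one (77.4%, interval 58.9 to 90.4), against 20.4% of all protein-coding genes. Replicate 1 alone had it for rps-5, rps-6 and rps-10, replicate 2 alone for rps-8, rps-9 and rps-16, and neither for rps-25. At 20 of the 24 genes (83.3%) the strongest summits of the replicates lay within 100 bp of each other, against 2167 of the 4041 other protein-coding genes listed by both (53.6%). These sets were not matched for peak strength. Of the 24 rps genes 12 were in the reproducible list, which held only 657 other protein-coding genes in all. For the 12 reproducible genes, the nearest replicate 1 summit was a median of 11 bp from the joint summit and at most 49 bp away. The nearest replicate 2 summit was a median of 8 bp away, and only rps-24 was beyond 100 bp, at 210 bp. Joint summits were called from both replicates together, so closeness to them is partly built in.

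Spearman's rank correlation between the replicates' ranks was 0.876 over the 24 rps genes listed by both and 0.580 over the 4041 other protein-coding genes listed by both. These are correlations across genes, which are not independent replicates, and all points of 1 list share its library. The 24 and the 4041 genes were also not matched for peak strength. Within the 12 reproducible genes rho was 0.748, and within the 12 others it was 0.287. The correlation was thus lower among the weaker rps sites. The replicates differed most at rps-21, ranked 16070 in replicate 1 and 3592 in replicate 2, and at rps-7, ranked 2380 and 14775. At rps-26 the ranks were 12212 in replicate 1 and 1295 in replicate 2, but these summits lay 539 bp apart. The replicates' strongest summits also lay more than 100 bp apart at rps-2 (255 bp), rps-24 (196 bp) and rps-11 (121 bp). At such genes the ranks need not be of 1 site.

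**Figure D2:**
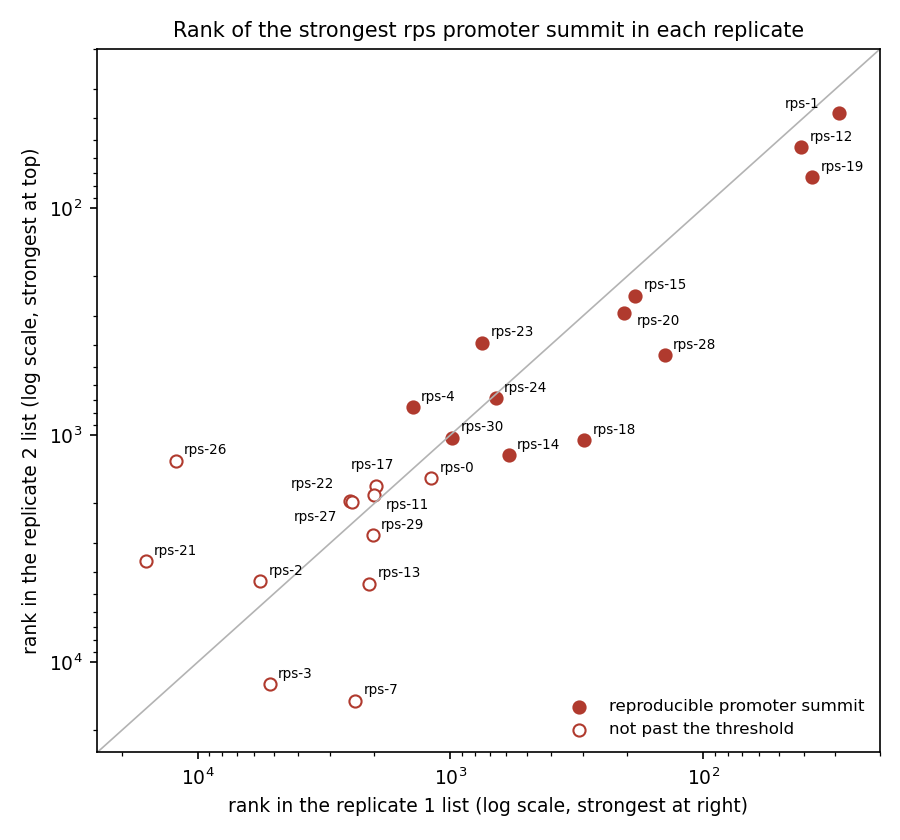
Rank of the strongest promoter summit in the replicate 1 list (horizontal) and the replicate 2 list (vertical) for the 24 rps genes listed by both, on log axes with the strongest at the top right. Filled points are the 12 reproducible genes and open points the other 12, and the line marks equal rank. The filled points follow the line, while rps-21, rps-26 and rps-7 lie far from it. For rps-2, rps-11, rps-24 and rps-26 the ranks are of summits more than 100 bp apart.

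Over the whole joint list, the rps genes were reached at a pace close to that of the genes of the large subunit. The sets are not separate, since the peaks of rps-14, rps-30 and rps-10 count in both. The 500 strongest joint peaks reached 8 of 31 rps genes (25.8%), 10 of 50 rpl and rla genes (20%) and 1.97% of all protein-coding genes. The 2000 strongest reached 17 rps genes (54.8%), 27 rpl and rla genes (54.0%) and 6.60% of all protein-coding genes. With genes that have no summit placed last, the median rps gene ranked 1579 in the joint list and the median rpl or rla gene 1752. In replicate 1 the medians were 2015 for rps genes and 1687 for rpl and rla genes, and in replicate 2 they were 1835 and 2534. The order of the 2 subunits thus changed between replicates, and no difference between them was tested.

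**Figure D3:**
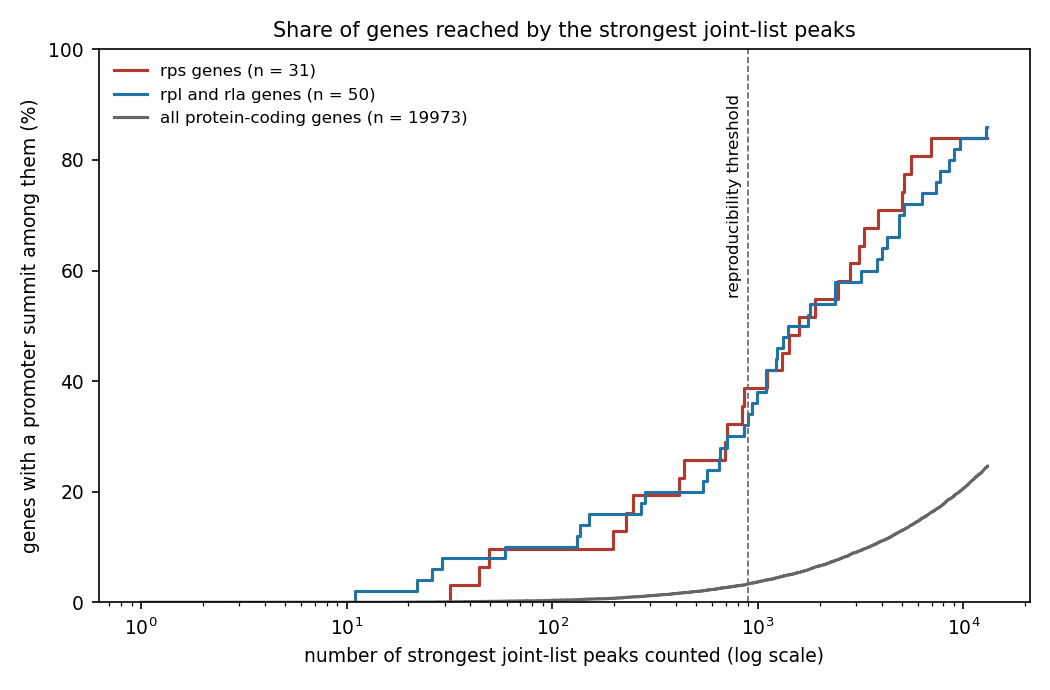
Share of genes with a promoter summit among the strongest joint-list peaks (vertical, percent) by the number of peaks counted (horizontal, log scale), for the 31 rps genes, the 50 rpl and rla genes and all 19973 protein-coding genes. The rps and rpl curves run together and lie above that of all genes, with 38.7% and 34% against 3.35% at the dashed line of the reproducibility threshold. The peaks of rps-14, rps-30 and rps-10 count in both the rps and rpl curves.

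Most reproducible rps summits lay upstream of the start at a moderate distance. The 12 lay between 618 bp and 176 bp upstream, with a median offset of -277.5 bp and quartiles of -405 and -260.2 bp. The 657 other protein-coding genes with a reproducible promoter summit had a similar median of -260 bp and wider quartiles of -470 and -147 bp. From 150 to 350 bp upstream, a span chosen after the positions were seen, lay 8 of the 12 rps summits and 250 of the 657 others (38.1%). In the joint list it held 14 of the 26 rps summits and 26.4% of the 4898 others. The exceptions among the 12 were rps-15 and rps-28, at 395 and 435 bp upstream, and rps-24 and rps-18, at 521 and 618 bp upstream.

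**Figure D4:**
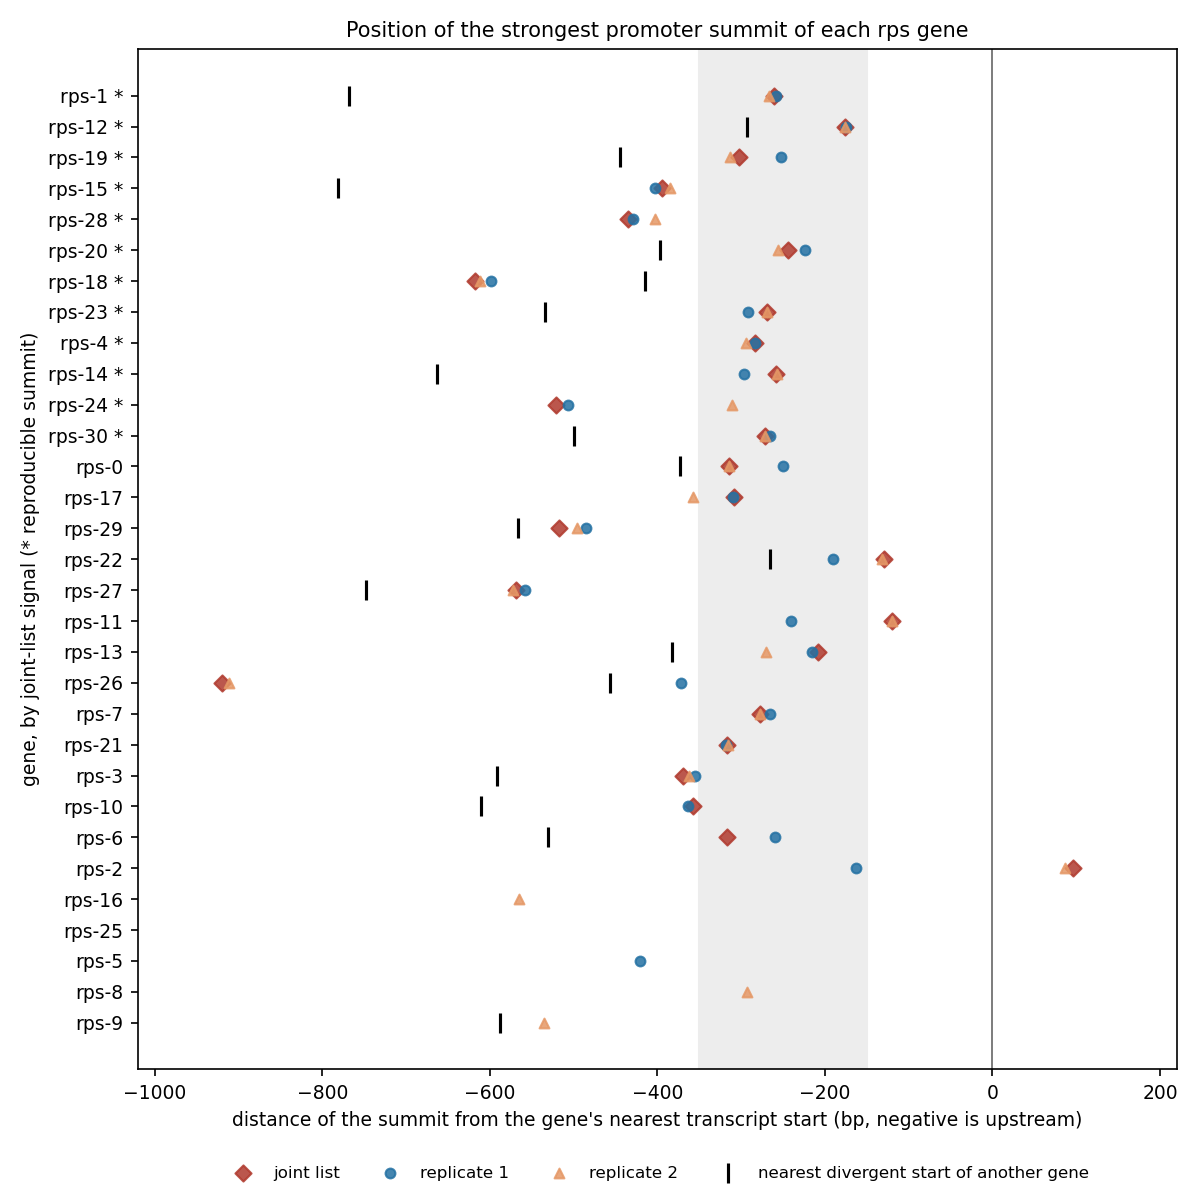
Distance of the strongest promoter summit from the nearest transcript start of each rps gene (horizontal, bp, negative is upstream) in the joint list (diamonds), replicate 1 (circles) and replicate 2 (triangles), with the nearest divergent start of another gene as a black tick. Genes run from the highest joint signal at the top, a star marks the 12 reproducible genes, and the shaded span from 150 to 350 bp upstream holds 8 of these 12 joint summits. The tick of most divergent pairs lies further upstream than the summit, so the summit falls between the starts.

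Many rps genes share their upstream region with a gene that runs the other way, and this limits what a summit can be assigned to. A divergent start lay within 1000 bp of 19 of the 31 rps genes (61.3%), against 18.3% of all protein-coding genes. Of these 19, 9 had a reproducible summit (47.4%), against 6.94% of the 3658 divergent genes in all. Of the 12 rps genes without such a neighbour, rps-4, rps-24 and rps-28 had one (25%), against 2.54% of the 16315 such genes in all. The rps share was thus above the share of all genes in either arrangement. By contrast, none of the 4 rps genes that start within 500 bp downstream of the end of another gene on the same strand, rps-2, rps-7, rps-16 and rps-17, had a reproducible summit, against 12 of the 27 others (44.4%). Among all protein-coding genes the shares were 2.46% of 3615 such genes and 3.55% of the other 16358, and with 4 rps genes the contrast rests on few.

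Of the 12 reproducible rps summits, 10 also fell in the promoter window of another protein-coding gene, and for 7 of these the other gene's start was the nearer one. At rps-12 the summit lay 176 bp from the rps-12 start and 117 bp from that of ska-3, a kinetochore gene. At rps-19 it lay 302 bp from the rps-19 start and 143 bp from that of hsr-9, a relative of the human DNA damage gene TP53BP1. At rps-20 the distances were 244 bp to rps-20 and 153 bp to ekl-4. The peaks of rps-23 and dpm-3, at 269 and 265 bp, and of rps-15 and F36A2.9, at 395 and 386 bp, were close to equidistant. The rps-18 summit lay in the annotated 5′ untranslated region of sec-61.A, the gene of the channel subunit of the endoplasmic reticulum translocon. The peak lists do not resolve which gene of such a pair the protein was recovered at.

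At rps-1 the rps start was the nearer one, 261 bp from the summit, with that of ifet-1 at 507 bp, whose product binds the cap-binding factor eIF4E and represses translation. The same held for rps-14, at 258 bp with rpl-36 at 405 bp and ndab-2 at 906 bp, and for rps-28, at 435 bp with Y41D4B.4 at 854 bp. Only rps-4 and rps-24 had their peak alone. At rps-14 and rps-30 the same peak served a gene of the large subunit, rpl-36 and rpl-39, and the joint-list peak of rps-10 was shared with rpl-24.1. Counted by nearest start alone, 5 of 31 rps genes had a reproducible summit, against 2.53% of all protein-coding genes, and 11 of 31 had a joint-list summit, against 20.6%.

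By place in the subunit, 6 of the 13 head protein genes and 6 of the 18 body and platform genes had a reproducible summit, against 3.35% of all protein-coding genes. Joint signals ran from 23.8 to 184 among the 10 listed head genes and from 21.4 to 218 among the 16 listed body and platform genes, so the ranges overlapped almost wholly. By chromosome, IV held 5 reproducible genes of 10, I and III held 3 of 8 and 3 of 9, V held 1 of 3, and the single gene of II, rps-9, had none. No rps gene lies on X. On those 5 chromosomes the share of all protein-coding genes with a reproducible promoter summit ran from 2.18% on V to 4.70% on III.

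Some rps genes carry small RNA genes inside them. In all, 8 such genes lay within 6 rps genes, 7 of them small nucleolar RNAs, in rps-4, rps-12, rps-13, rps-23 and rps-29, and the microRNA gene cel-mir-354 in rps-20. Of these 6 host genes, 4 had a reproducible summit, against 46 of the 540 protein-coding genes in all that hold such a gene within their span (8.52%). None of the 12 reproducible rps summits lay within 250 bp of a transfer, small nucleolar, small nuclear or microRNA gene. Leaving out peaks near such genes therefore could not change the count of 12.

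The sequence under the rps summits was set against 6 motifs searched on both strands in the 101 bp windows. The 887 other reproducible windows are those of all reproducible peaks except the 12, in promoters or not. They include the rpl and rla windows, so they are not a matched set of promoter sites. The GA repeat GAGAGA was in 1 of the 12 reproducible rps windows, that of rps-1 printed above, in 2 of 15 rpl and rla windows not shared with an rps gene (13.3%) and in 265 of the 887 other reproducible windows (29.9%). In the 500 bp upstream of the start it was in 12 of 31 rps genes (38.7%), 38.0% of rpl and rla genes and 29.96% of the 19942 other protein-coding genes. The AP-1 site TGANTCA was in none of the 12 reproducible and none of the 14 other joint-list rps windows, against 4.51% of other reproducible windows. In the 500 bp upstream it was in 2 of 31 rps genes, rps-27 and rps-28 (6.45%), against 15.2% of other protein-coding genes. The related TGACGTCA was in no rps window or upstream region, against 0.564% of other reproducible windows and 2.64% of other upstream regions. The E-box CACGTG was in none of the 12, against 4.74% of other reproducible windows, GGGCGG was in 2 of 12 (16.7%), against 5.52%, and a run of 6 T was in 4 of 12 (33.3%), against 17.7%. A match is a description of the letters in these windows and no match says only that they are not there.

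After the sequences were seen, the words most often shared by the 12 windows were counted. The commonest word of 6 letters was TACGCA, found in 6 of 12 reproducible rps windows (50%), in 3 of 14 other joint-list rps windows (21.4%), in 3 of 15 rpl and rla windows (20%) and in 6.20% of the 887 other reproducible windows. In the 500 bp upstream it was in 11 of 31 rps genes (35.5%), 20% of rpl and rla genes and 10.6% of other protein-coding genes. The longer TACGCAG, which contains it, was in 4 of 12 reproducible and 3 of 14 other joint-list rps windows. It was in 1 of 15 rpl and rla windows (6.67%) and in 2.71% of other reproducible windows. Upstream it was in 8 of 31 rps genes (25.8%), 12% of rpl and rla genes and 2.19% of other protein-coding genes. The word CAGCCAA was in 4 of 12 reproducible and 4 of 14 other joint-list rps windows, against 1.69% of other reproducible windows. The word TACCGTA was in 4 of 12 reproducible rps windows (33.3%) and 2 of 14 other joint-list rps windows, against 7 of 15 rpl and rla windows (46.7%) and 3.27% of other reproducible windows. Upstream it was in 6 of 31 rps genes (19.4%), 22% of rpl and rla genes and 7.22% of other protein-coding genes. In the rps-14 window printed above, TACGCA runs on into GCCAA, so that TACGCAG and CAGCCAA overlap there. These words were picked for being frequent in the 12 windows, so their shares there are a description, while the upstream regions contain many of the same bases.

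The median GC content of the reproducible rps windows was 51.0%, against 48.5% in the other reproducible windows, and that of the 500 bp upstream regions was 33.0% for rps genes and 33.8% for other protein-coding genes. The upstream regions are those of all rps genes and of all other protein-coding genes, with or without a summit.

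Genes that work with the small subunit showed summits at mixed heights. The small subunit proteins without the prefix are ubl-1, the gene of eS31, and rack-1, the gene of a scaffold protein on the head. Neither had a reproducible summit, with joint signals of 46.4 for ubl-1 and 24.3 for rack-1. In the replicates ubl-1 had 28.3 in replicate 1 and 14.8 in replicate 2, and rack-1 had 13.03 in replicate 1 and 9.78 in replicate 2. Of the 11 genes of eIF3, the initiation factor that docks on the small subunit, 2 had a reproducible summit and 5 a joint-list summit, where the shares of all protein-coding genes were 3.35% and 24.7%. These 2 were eif-3.C, with 83.0 in the joint list, 36.6 in replicate 1 and 46.9 in replicate 2, and eif-3.J, with 59.1, 29.04 and 29.2 in the same lists. Of 7 genes that process or mature the small subunit, 2 had a reproducible summit and 4 a joint-list summit, beside the same shares of 3.35% and 24.7%. They were fib-1, with 92.4 in the joint list, 49.7 in replicate 1 and 42.1 in replicate 2, and rbd-1, with 60.4, 21.1 and 36.3. Both shared their peak, fib-1 with mut-15 and rbd-1 with T23F6.3.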

How the data were processed

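Per the labels, 2 biological replicates of whole L4 larvae carrying eGFP-tagged jun-1 were used for chromatin immunoprecipitation and sequencing. They do not say whether these were separate cultures. The peak lists on ce11, which is WBcel235, were used, and those on ce10 were not used here. Per the deposited file descriptions, regions were called from alignments together with a control, by a caller not given in the sources used here. Read depth is unknown. The deposited signal per peak is the peak caller's value, and the deposited -log10 q-value per peak, 0.0176 to 3.01 in the joint list, set no threshold. Apart from the threshold list, the lists include background regions.

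Summits were set against Ensembl release 115 genes. A gene had a promoter summit when one lay between 1000 bp upstream and 200 bp downstream of a transcript start, and the strongest by signal was taken. A summit counted for every gene whose window held it. Members and lists were chosen with earlier results of these data known. All rps genes were named, with values in every list for those with a reproducible summit and for the 5 next strongest. Other genes were named only where they shared a named peak or belonged to the small subunit, eIF3 or small subunit processing lists, except tmem-107 and cel-mir-354, chosen after their values were seen for lying at the rps-26 summit and inside rps-20. The design gives no test, so counts stand beside the share of all protein-coding genes, with exact binomial intervals at 95%. The window search was tested on simulated summits. Sequences came from the RefSeq WBcel235 genome. Alternatives changed the window, the overlap rule, the assignment, the threshold and the replicate. Computations used pandas 2.3.3, numpy 2.4.6 and scipy 1.17.1 under Python 3.11.15, with plots from matplotlib 3.10.9.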

Additional observations from a re-analysis of the deposited data

How the results depend on the processing

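Of 25 alternative settings, 21 kept their result, which for a count meant within 1.5 times the one reported and for the highest signal the same value. A fall from 12 to 8 genes is still within this limit. Among the 21, leaving out peaks near small RNA genes could not have changed the count of 12. With each summit given only to the nearest start, 5 rps genes had a reproducible summit, 11 a joint-list summit and 10 a summit in both replicates (2.53%, 20.6% and 16.3% of all genes), where the report has 12, 26 and 24; this setting assigns each shared peak to 1 gene. Among the 899 strongest peaks of each replicate, a setting added once the data had been seen, 8 rps genes had a summit in both (2.13% of all protein-coding genes). From replicate lists alone, 9 to 10 rps genes had a summit among the 899 strongest peaks, all of them among the 12 reproducible, and 27 in either full list, against 26 in the joint list. Without replicate 1 the count was 9 (3.12% of all genes) and lost rps-14, rps-18 and rps-30, and without replicate 2 it was 10 (3.27%) and lost rps-4 and rps-30. Windows from 500 and 2000 bp upstream gave 10 and 13 reproducible rps genes (2.58% and 4.5% of all genes), and the wider one added rps-16 through the fib-1 peak. The stronger 449 reproducible peaks held 8 (1.79% of all genes). The highest rps signal, 218 at rps-1, was the same under the window and assignment settings run for it. The 500 bp window and the nearest-start setting could not have changed it, since that summit lies 261 bp upstream and nearest to the rps-1 start. Both are also counted among the 21. No paired analysis was possible because the series holds 1 group and the results come from no test.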
